A study of Mus musculus with 14 samples.

Results

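The ventricles of 5 GX mice and 2 wild-type (WT) mice, all given the compound MRL5, were compared gene by gene. These 7 libraries are part of a series of 14 and were chosen by the genotype and treatment in their labels, without reference to any measured value. Both alleles of GX mice encode a cardiac sodium channel with the GX change (genotype GX/GX), and WT mice were WT/WT. MRL5, known here by its code name alone, belongs to the GX family of compounds and blocks the changed channel, per the design text. All mice were males, the tissue was heart ventricle, and each received 1 intraperitoneal injection 4 hours before collection. The other libraries came from 4 GX and 3 WT mice given the vehicle DMSO, and they serve as the setting against which the difference under MRL5 is read. Each library was made from polyadenylated RNA of a separate mouse, per the labels, and was read as paired ends. Labels name 5 GX mice with MRL5 where the design text counts 4, and none was left out. Replicates are numbered as their records are listed. A sequence change cannot be checked in gene-level values. The age and strain of the mice, the dose of MRL5 and the cells that carry the change are not given in the sources used here.

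Voltage-gated sodium channels open at the start of each cardiac action potential and carry the current that spreads excitation through the ventricle. Comparing the genotypes in treated animals sets hearts with the changed channel beside hearts without it, all exposed to the same compound. The gene programmes followed here were chosen with earlier results of these data known. Some are programmes that hearts are known to engage within hours of injury, stress hormones or altered rhythm. They include the acute phase genes downstream of interleukin-6 family cytokines and STAT3, the targets of the glucocorticoid receptor, the immediate early transcription factors, and the matricellular proteins made by activated fibroblasts.

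Expression is given as scaled reads per base, the unit named in the deposited table, and values for the 5 GX libraries and the 2 WT libraries are listed in replicate order. Differences are GX minus WT on log2(value + 1), with the standard error (SE) of limma, a linear model with variances moderated across genes, and p-values are limma's. The column sums of the 7 libraries lay between 17965774 and 21531953, and 13898 to 14090 genes had a value of at least 1. Ventricular muscle genes were abundant in all 7 libraries: Myh6, the main myosin heavy chain of the adult mouse heart, lay between 52778 and 68420 in GX and was 55317 and 63664 in WT. The atrial light chain Myl7 lay between 2.06 and 11.3 in 4 GX libraries, was 133 in GX MRL5 4, and was 20.7 and 11.6 in WT. GX MRL5 4 is also the only one of the 7 libraries from the set numbered 174. In bulk tissue, fewer cells of a type and less RNA per cell cannot be told apart.

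WT MRL5 1 stood apart. Of all 14 libraries it had the highest value for 2145 genes (15.2%) and the lowest for 2104 (14.9%), where an even share would be 7.14%. Its value was more than 1 log2 unit from the median library for 1020 genes, against 356 to 668 genes in the 5 GX libraries and 367 in WT MRL5 2. Since it is 1 of only 2 WT libraries, many of the differences below are given with and without it; without it the lone WT library is assumed to vary like the other groups. GX MRL5 3 held the highest values of several stress genes, and some differences are also given without it.

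No gene of 14156 tested passed an adjusted p of 0.05 (0% called), and the smallest adjusted p was 0.226. The unadjusted p was under 0.05 for 932 genes (6.58%), of which 509 were higher in GX (3.6% of all genes) and 423 lower (2.99%); with the columns scaled to equal sums the split was 316 and 391. The differences below are therefore descriptions of these 7 animals, and each list is read against those shares. Positive differences made up 49.4% of all genes, and the median difference over all genes was -0.0025. The groups did not overlap for 1310 genes (9.25%): each GX value lay above each WT value for 674 genes (4.76%) and below for 636 (4.49%). Without WT MRL5 1, 104 of the 509 positive and 96 of the 423 negative genes kept an unadjusted p under 0.05, while 501 and 419 kept their sign. Without WT MRL5 2, 63 genes passed the adjusted threshold, and these are described near the end. A difference of at least 1 log2 unit upward was seen for 274 genes (1.94%), and of at least 1 unit downward for 183 (1.29%).

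The 12 genes with the smallest p among those with each GX value above each WT value came from several programmes, and 10 of them are described. Ifi205, an interferon-inducible gene of the p200 family (chromosome 1, 174011998 to 174031810, minus strand), had values of 946, 982, 1368, 997 and 999 in GX and 583 and 459 in WT. All 5 GX values exceeded both WT values, by a log2 difference of 1.02 (SE 0.16, limma unadjusted p = 1.59e-05, adjusted p = 0.226). GX MRL5 3 was the highest of the 5, and the difference without it was 0.92. Genes of this family share sequence, so reads may be divided among them. Nsd2, which methylates lysine 36 of histone H3 (chromosome 5, 33820725 to 33897975, plus strand), had 504, 483, 514, 386 and 453 in GX and 244 and 280.2 in WT, a log2 difference of 0.83 (SE 0.16, limma unadjusted p = 9.18e-05, adjusted p = 0.493). The other members of its class did not stand with it: of 11 histone H3 lysine 36 methyltransferase and related genes, 5 had a positive difference, with a median near 0, and Nsd2 was the 1 with an unadjusted p under 0.05.

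Syn2, a synaptic vesicle phosphoprotein (chromosome 6, 115134902 to 115282006, plus strand), had 138, 130.9, 125, 136 and 114 in GX and 50.2 and 70.9 in WT. Its log2 difference of 1.10 (SE 0.21, limma unadjusted p = 0.000118, adjusted p = 0.493) came from groups that did not overlap, and both WT MRL5 values also lay below all 7 DMSO values. Ube2e1, a ubiquitin-conjugating enzyme, had 171, 164, 163, 191 and 169 in GX and 102 and 130.4 in WT, with a log2 difference of 0.57 (SE 0.12, limma unadjusted p = 0.000389). WT MRL5 1 was the lowest of all 14 libraries, and without it the difference was 0.39. Klra9, a natural killer cell receptor of the Ly49 family, had low values of 14.0, 30.8, 28.6, 22.9 and 21.6 in GX and 10.3 and 5.15 in WT; its near-identical relatives make the division of reads uncertain.

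In the other direction 11 of the corresponding 12 genes are described, led by Wdhd1, a DNA replication factor (chromosome 14, 47240944 to 47276857, minus strand). It had values of 7.51, 12.0, 7.18, 17.4 and 13.9 in GX and 74.2 and 30.1 in WT, a log2 difference of -2.01 (SE 0.39, limma unadjusted p = 0.000139, adjusted p = 0.493). The groups did not overlap, and WT MRL5 1 had the highest value of all libraries; without it the difference was -1.37. Zc3h6, a CCCH zinc finger gene, had 105, 107, 111, 109 and 126 in GX and 321 and 184 in WT, a log2 difference of -1.12 (SE 0.23, limma unadjusted p = 0.000209), and again the larger WT value was that of WT MRL5 1, whose removal gave -0.72. Star, which moves cholesterol into mitochondria for steroid synthesis, had 27.5, 18.1, 28.5, 22.0 and 18.8 in GX and 58.9 and 42.6 in WT, a log2 difference of -1.12 (SE 0.26, limma unadjusted p = 0.000752). Hpdl, a mitochondrial dioxygenase-like protein, had 50.6, 43.0, 43.6, 53.2 and 48.4 in GX and 88.6 and 87.5 in WT, and its log2 difference of -0.87 (SE 0.22, limma unadjusted p = 0.00122) hardly depended on which WT library was kept (-0.87 without the first and -0.88 without the second).

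Ky, a muscle protein of the Z-disc, had 97.4, 106, 72.2, 107 and 107 in GX and 168 and 224 in WT, a log2 difference of -0.99 (SE 0.25, limma unadjusted p = 0.00132), with GX MRL5 3 the lowest. Nfatc2, a transcription factor that calcineurin moves to the nucleus, had 142, 119, 84.0, 119 and 97.5 in GX and 236 and 174 in WT, a log2 difference of -0.87 (SE 0.23, limma unadjusted p = 0.00167). Gabpb2, a subunit of the GA-binding protein, had 214, 244, 217, 286 and 217 in GX and 368 and 329 in WT, a log2 difference of -0.57 (SE 0.15, limma unadjusted p = 0.00161). In each of these 3 genes the lowest WT value lay above the highest GX value. Fam219b, Gnpda1 (an amino sugar isomerase), Hsbp1l1 and Pcdhga6 (1 of the clustered gamma protocadherins, whose overlapping transcripts make the division of reads uncertain) had differences of -0.65, -0.75, -1.05 and -0.97. With WT MRL5 1 left out, those of Fam219b and Gnpda1 were -0.34 and -0.34.

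**Figure D1:**
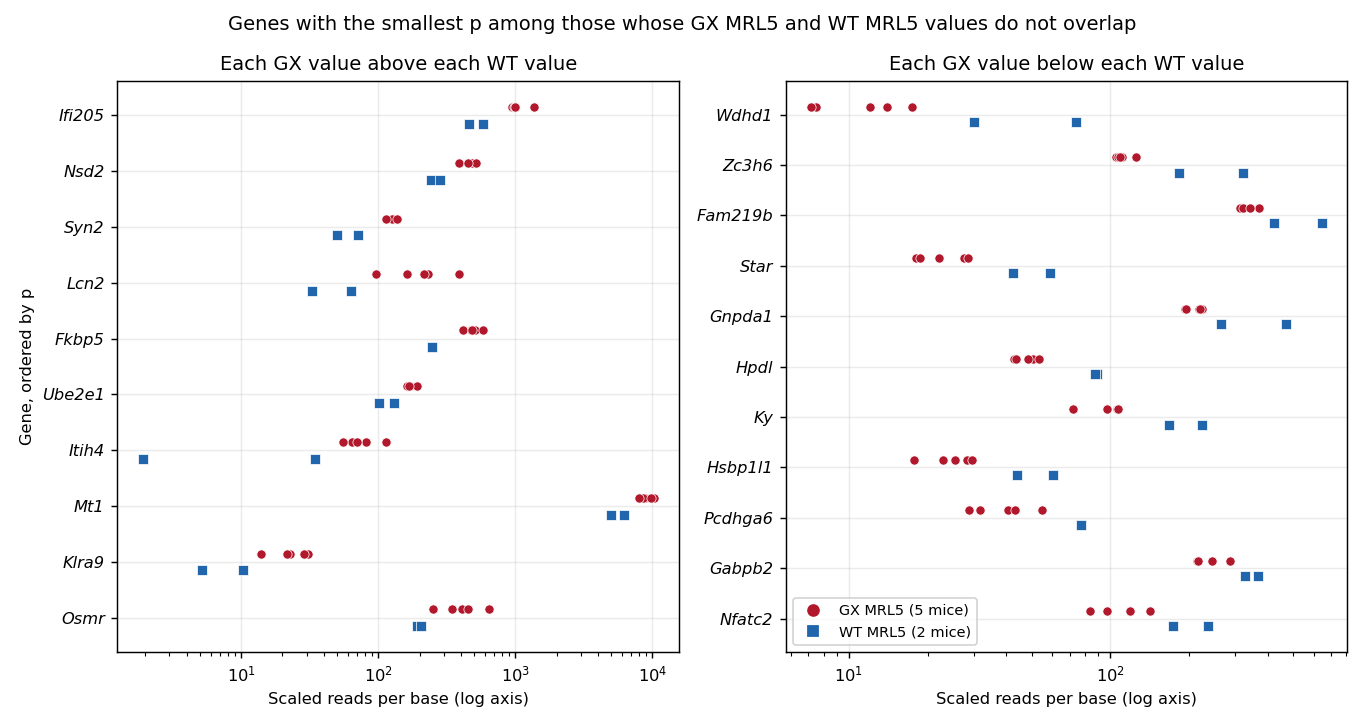
Values of 10 genes higher in GX (left) and 11 lower in GX (right), in scaled reads per base on a log axis; each red circle is 1 of the 5 GX MRL5 mice and each blue square 1 of the 2 WT MRL5 mice. The groups do not overlap for any gene shown, which is how the genes were chosen, and Itih4 and Wdhd1 have the WT library that lies farthest out.

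Acute phase genes, known to be induced in inflammation, had mostly positive differences. Of 15 members in the table (26 listed), 13 had a positive difference, 8 of them at an unadjusted p under 0.05, and for 6 each GX value lay above each WT value. The median difference was 0.63, against -0.0025 over all genes. The serum amyloid A genes, the orosomucoids and the fibrinogen chains, classic liver acute phase products, were listed and not among the genes tested. Without WT MRL5 1 the median was 0.46 and 3 members were higher at an unadjusted p under 0.05, against 2.0% of all genes. With GX MRL5 3 left out instead, the median was 0.52 and the count 7, against 2.9% of all genes (2.41% lower). Under DMSO the same list had a median genotype difference of 0.01.

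Lcn2, lipocalin 2, an iron-siderophore binding protein secreted in inflammation (chromosome 2, 32384633 to 32388252, minus strand), had 95.8, 161, 229, 386 and 215 in GX and 32.7 and 63.2 in WT. The lowest GX value exceeded the highest WT value, with a mean of 217 ± 108 in GX (SD, n = 5) and 47.9 ± 21.6 in WT (SD, n = 2). The log2 difference of 2.09 (SE 0.43, limma unadjusted p = 0.000237, adjusted p = 0.527) was 1.62 without WT MRL5 1. Itih4, a plasma protease inhibitor heavy chain, had 64.1, 81.9, 55.1, 113 and 70.1 in GX and 1.92 and 34.6 in WT, a log2 difference of 2.89 (SE 0.66, limma unadjusted p = 0.000673, adjusted p = 0.65). WT MRL5 1 was by far the lowest of all 14 libraries for Itih4, and the difference without it was 1.09. Serpina3n, a protease inhibitor of the antichymotrypsin group, had 604, 512, 874, 1075 and 629 in GX and 124 and 381 in WT, a log2 difference of 1.70 (SE 0.52, limma unadjusted p = 0.00615) with no overlap of the groups; it was 0.90 (limma unadjusted p = 0.162) with WT MRL5 1 left out and 2.51 with WT MRL5 2 left out.

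Ptx3, a long pentraxin, had 10.6, 109, 568, 77.5 and 55.1 in GX and 9.08 and 14.1 in WT, a log2 difference of 2.69 (SE 0.99, limma unadjusted p = 0.0175). GX MRL5 1 lay among the WT values and GX MRL5 3 far above the rest, so the groups overlapped. Timp1, an inhibitor of matrix metalloproteinases, had 38.9, 66.99, 430.4, 193 and 78.8 in GX and 33.4 and 29.4 in WT, a log2 difference of 1.80 (SE 0.71, limma unadjusted p = 0.0247). The groups did not overlap for Timp1; GX MRL5 3 was again the highest, and without it the difference was 1.32. Ceruloplasmin (Cp) and Steap4, a metalloreductase, were also among the members with an unadjusted p under 0.05, with differences of 0.28 and 0.42.

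Among secreted ligands, 16 of 22 cytokines and chemokines in the table had a positive difference, with a median of 0.29. An unadjusted p under 0.05 was found for 3 of them, and for 3 when GX MRL5 3 was left out. Without GX MRL5 3 the median was 0.15 with 13 positive, and without GX MRL5 3 and GX MRL5 4 it was 0.0067 with 11. The median was 0.18 without WT MRL5 1 and 0.36 without WT MRL5 2. Interleukin-6, leukemia inhibitory factor, oncostatin M and tumour necrosis factor were not among the genes tested. Ccl2, the main attractant of monocytes, had 26.6, 132, 1494, 192 and 113 in GX and 28.4 and 26.6 in WT. Its log2 difference of 2.53 (SE 1.01, limma unadjusted p = 0.0266) came from 4 of the 5 GX libraries: GX MRL5 1 was just below the WT values, GX MRL5 3 was far above the others, and without GX MRL5 3 the difference was 1.73. Ccl7, encoded beside it on chromosome 11, had 6.74, 65.5, 613, 128.5 and 50.5 in GX and 14.1 and 11.6 in WT, with the same order of libraries and a log2 difference of 2.41 (SE 1.21, limma unadjusted p = 0.068). Ccl12, a related monocyte chemokine, had 19.5, 17.4, 104, 39.8 and 16.1 in GX and 6.89 and 6.28 in WT, with no overlap and a log2 difference of 2.02 (SE 0.62, limma unadjusted p = 0.00564). Ccl9 had a difference of 0.73, and without WT MRL5 1 of 0.40.

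Among receptors, Osmr, the oncostatin M receptor (chromosome 15, 6813577 to 6874969, minus strand), had 249, 407, 648, 449 and 345 in GX and 190.2 and 205 in WT. Each GX value lay above each WT value and both WT values lay below the 7 DMSO values; the log2 difference of 1.01 (SE 0.26, limma unadjusted p = 0.00135, adjusted p = 0.65) became 0.96 when WT MRL5 1 was left out and 0.84 when GX MRL5 3 was. Il4ra, the shared receptor chain of interleukins 4 and 13, had 184, 202, 461, 256 and 181 in GX and 122 and 118 in WT, a log2 difference of 1.00 (SE 0.29, limma unadjusted p = 0.00363). Tnfrsf1a, the main receptor of tumour necrosis factor, had 275, 298, 372, 384 and 321 in GX and 199 and 259 in WT, a log2 difference of 0.53 (SE 0.15, limma unadjusted p = 0.00392), and Il1r1, the signalling receptor of interleukin-1, had 236, 379, 457, 361 and 271 in GX and 231 and 171 in WT, a log2 difference of 0.74 (SE 0.23, limma unadjusted p = 0.0057). In all 4 receptors the groups did not overlap, and with WT MRL5 1 left out the difference of Tnfrsf1a was 0.34. Over the whole list of 33 receptor and STAT3 pathway genes, 23 had a positive difference and the median was 0.12; 7 had each GX value above each WT value and 0 the reverse. Of the list 5 were higher at an unadjusted p under 0.05, and 6 when WT MRL5 1 was left out. The NF-kB feedback and adhesion list had 18 positive members of 21 and a median of 0.26, which was 0.09 without GX MRL5 3. Zc3h12a, an RNase that degrades cytokine transcripts, was its 1 member with an unadjusted p under 0.05 (90.2, 82.6, 85.3, 78.4 and 76.5 in GX and 59.7 and 56.2 in WT).

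**Figure D2:**
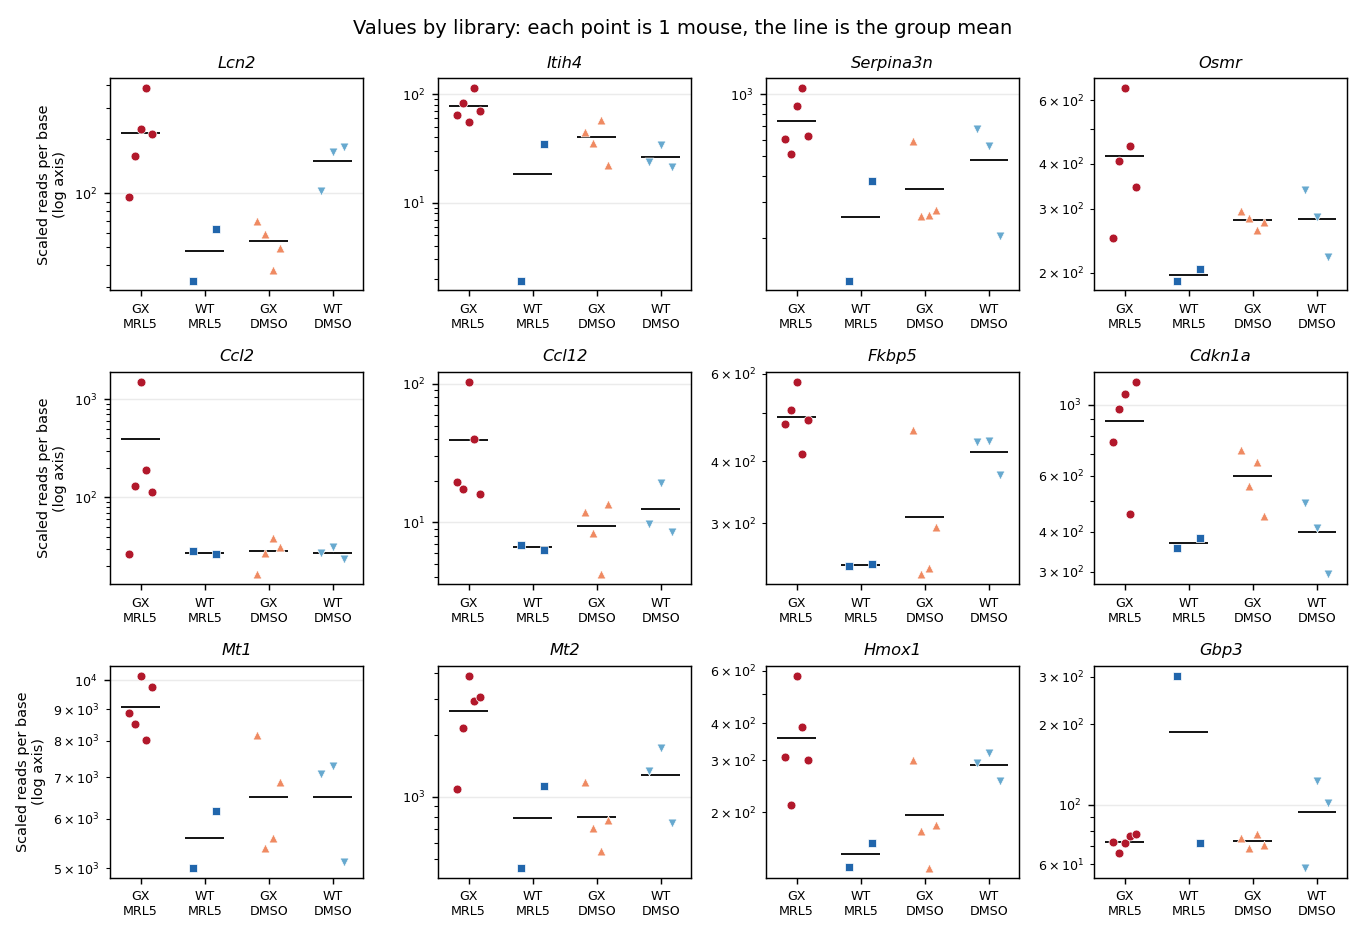
Values of 12 genes in every library of the 4 groups, in scaled reads per base on a log axis; each point is 1 mouse and the black line the group mean. Lcn2, Osmr, Fkbp5, Mt1 and Hmox1 show both WT MRL5 libraries below all 5 GX MRL5 libraries, while Gbp3 is high in WT MRL5 1 alone.

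The glucocorticoid response list, of genes that the glucocorticoid receptor is known to induce, held 26 positive members of 31, 10 of them at an unadjusted p under 0.05, and a median of 0.28. Mean levels over the list were 9.00, 8.89, 9.10, 8.51 and 8.80 in the GX libraries and 8.40 and 8.30 in the WT libraries, on the log2 scale. No GX library lay below a WT library. Leaving out WT MRL5 1 gave a median difference of 0.55 with 26 positive members, and leaving out WT MRL5 2 gave 0.20 with 19. Leaving out GX MRL5 3 gave 0.16, with 10 members higher at an unadjusted p under 0.05. Under DMSO the list also had a positive median genotype difference, of 0.20.

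Fkbp5, a chaperone partner of the glucocorticoid receptor and a standard readout of its activity (chromosome 17, 28399094 to 28517527, minus strand), had 474, 506, 578, 414 and 484 in GX and 246 and 248 in WT. The mean was 491 ± 59.3 in GX (SD, n = 5) and 247 ± 1.63 in WT (SD, n = 2), a log2 difference of 0.98 (SE 0.20, limma unadjusted p = 0.00026, adjusted p = 0.527). The WT values were nearly equal, and the difference was 0.97 without WT MRL5 1 and 0.99 without WT MRL5 2. Cdkn1a, a cyclin-dependent kinase inhibitor, had 763, 968, 1078, 456 and 1178 in GX and 357 and 382 in WT, a log2 difference of 1.19 (SE 0.31, limma unadjusted p = 0.00168). Errfi1, a feedback inhibitor of the epidermal growth factor receptor, had 432, 561, 1076, 326 and 556 in GX and 249 and 306 in WT, a log2 difference of 0.97 (SE 0.32, limma unadjusted p = 0.00955). Neither gene overlapped between the groups, and GX MRL5 4 was the lowest GX library for both.

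Pdk4, which blocks glucose oxidation by phosphorylating pyruvate dehydrogenase, had 3352, 5104, 5307, 2481 and 5822 in GX and 859.9 and 2771 in WT, a log2 difference of 1.44 (SE 0.51, limma unadjusted p = 0.0142). GX MRL5 4 lay below WT MRL5 2, and without WT MRL5 1 the difference was 0.60. Angptl4, a secreted inhibitor of lipoprotein lipase, had 216, 292, 411, 397 and 371 in GX and 77.7 and 168 in WT, with no overlap and a log2 difference of 1.51 (SE 0.50, limma unadjusted p = 0.00996); without WT MRL5 1 it was 0.96. Map3k6 and Slc10a6 had differences of 0.79 and 0.96, which were 1.20 and 1.42 with WT MRL5 1 left out and 0.39 and 0.51 with WT MRL5 2 left out.

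Metallothioneins, small metal-binding proteins whose genes respond to zinc, glucocorticoids and cytokines, include the neighbouring genes Mt1 and Mt2. Mt1 (chromosome 8, 94179082 to 94180327, plus strand) had 8862, 8514, 10180, 8014 and 9763 in GX and 5004 and 6189 in WT, a log2 difference of 0.70 (SE 0.17, limma unadjusted p = 0.00113, adjusted p = 0.65). Its neighbour Mt2 (chromosome 8, 94172664 to 94173568, plus strand) had 1093, 2167, 3879.6, 2926 and 3057 in GX and 452 and 1134 in WT, a log2 difference of 1.75 (SE 0.49, limma unadjusted p = 0.00355). All GX values of Mt1 lay above both WT values, and for Mt2 GX MRL5 1 lay just under WT MRL5 2. Leaving out WT MRL5 1, the differences were 0.55 for Mt1 and 1.09 for Mt2. The rest of the list did not go with them: of 21 metallothionein and zinc transport genes 14 had a positive difference, the median was 0.06, and Slc39a13, a zinc importer, had 131.3, 107, 114, 107 and 100.6 in GX and 165 and 128 in WT, a log2 difference of -0.38 (SE 0.15, limma unadjusted p = 0.0209) that was -0.19 with WT MRL5 1 left out.

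The 250 bases before the RefSeq starts of Mt1 and Mt2 are shown because these neighbouring genes had the same direction of difference; build GRCm38.p6, plus strand, 5′ to 3′, chr8:94178839-94179088 for Mt1 and chr8:94172368-94172617 for Mt2, with matches to the metal response element core in capitals.
Mt1: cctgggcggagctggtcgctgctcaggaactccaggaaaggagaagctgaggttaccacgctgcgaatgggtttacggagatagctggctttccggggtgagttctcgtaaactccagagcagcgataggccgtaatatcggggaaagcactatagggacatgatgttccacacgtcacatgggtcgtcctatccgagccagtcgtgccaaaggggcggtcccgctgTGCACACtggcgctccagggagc
Mt2: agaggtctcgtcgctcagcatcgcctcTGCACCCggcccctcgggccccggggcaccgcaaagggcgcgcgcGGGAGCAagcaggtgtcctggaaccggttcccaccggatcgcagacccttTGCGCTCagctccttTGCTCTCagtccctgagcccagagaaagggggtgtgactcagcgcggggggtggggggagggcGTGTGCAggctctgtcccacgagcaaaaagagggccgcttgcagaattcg
The letters marked are TGCNCNC on either strand, which matched at 1 place for Mt1 and 5 places for Mt2. Of 32851 promoter windows of the same length, 44.4% held at least 1 match and 0.344% at least 5. Counted by gene, the same letters were in a window of 4 of the 9 higher genes and 7 of the 8 lower genes that had windows. Syn2 and Nfatc2 had more than 1 window each, so these counts are not shares of windows. Letters of other sites were searched too. The glucocorticoid receptor site ACANNNTGT matched at 1 place for Mt1, and the AP-1 site TGANTCA at 1 place for Mt2. At least 1 match was held by 5.84% and 6.75% of all windows. The cyclic AMP response element, STAT site, E-box and heat shock element matched in neither window. These are matches of letters only, and sequence of Mt1 and Mt2 outside the windows shown was not searched.

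The immediate early list, of transcription factors and feedback genes that respond within the hour to growth factors, stretch and stress, had 26 positive members of 29 and a median of 0.53, with 5 at an unadjusted p under 0.05. Mean levels over the list were 7.75, 8.25, 9.67, 7.98 and 8.11 in the GX libraries and 7.67 and 7.64 in the WT libraries. GX MRL5 3 was well above the other GX libraries, and without it the median was 0.22, close to the 0.21 seen between the genotypes under DMSO. In place of 5, 2 and 7 list genes had an unadjusted p under 0.05 when WT MRL5 1 or GX MRL5 3 was left out. Dusp6, a phosphatase that turns off ERK, had 155, 225, 245, 189 and 188 in GX and 135 and 136 in WT, with no overlap and a log2 difference of 0.54 (SE 0.16, limma unadjusted p = 0.0037). Atf3, a stress-induced transcription factor, had 94.5, 469.6, 6804, 489 and 860.0 in GX and 79.2 and 111 in WT, a log2 difference of 2.81 (SE 1.13, limma unadjusted p = 0.0299). Egr3, a zinc finger factor of the early growth response family, had 10.7, 44.3, 241, 54.7 and 41.8 in GX and 6.27 and 13.8 in WT, a log2 difference of 2.26 (SE 0.81, limma unadjusted p = 0.0144). For Atf3 and Egr3 GX MRL5 1 lay between the WT values and GX MRL5 3 was far above the rest; without GX MRL5 3 the differences were 1.97 and 1.69. Nr4a3, an orphan nuclear receptor, had 148, 226, 321, 97.9 and 183 in GX and 101.4 and 82.4 in WT, a log2 difference of 0.98 (SE 0.39, limma unadjusted p = 0.0243).

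Heat shock genes, the cytosolic chaperones under heat shock factor, had 26 positive members of 29, a median of 0.18 and none at an unadjusted p under 0.05. Hspa1a, the inducible Hsp70, had 202, 978, 53385, 738 and 1187 in GX and 189.7 and 196 in WT, a log2 difference of 3.01 (SE 1.60, limma unadjusted p = 0.0865). GX MRL5 1 had nearly the WT level, the other 4 GX libraries had more, and GX MRL5 3 was far above all others; without that library the difference was 1.74 and the list's median 0.05. The near-identical Hspa1b makes the division of reads between them uncertain. Hspb8, a small heat shock protein of muscle, had 7076, 7788, 11724, 7635 and 7543 in GX and 7214 and 6024 in WT, a log2 difference of 0.32 (SE 0.16, limma unadjusted p = 0.0684). Genes of the unfolded protein and integrated stress responses had a median of 0.01 with 19 of 34 positive, and the median was -0.03 with the columns scaled to equal sums; Xbp1, a transcription factor of the unfolded protein response, had 625, 608, 733, 689 and 592 in GX and 558 and 552 in WT, a log2 difference of 0.22 (SE 0.10, limma unadjusted p = 0.0365).

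**Figure D3:**
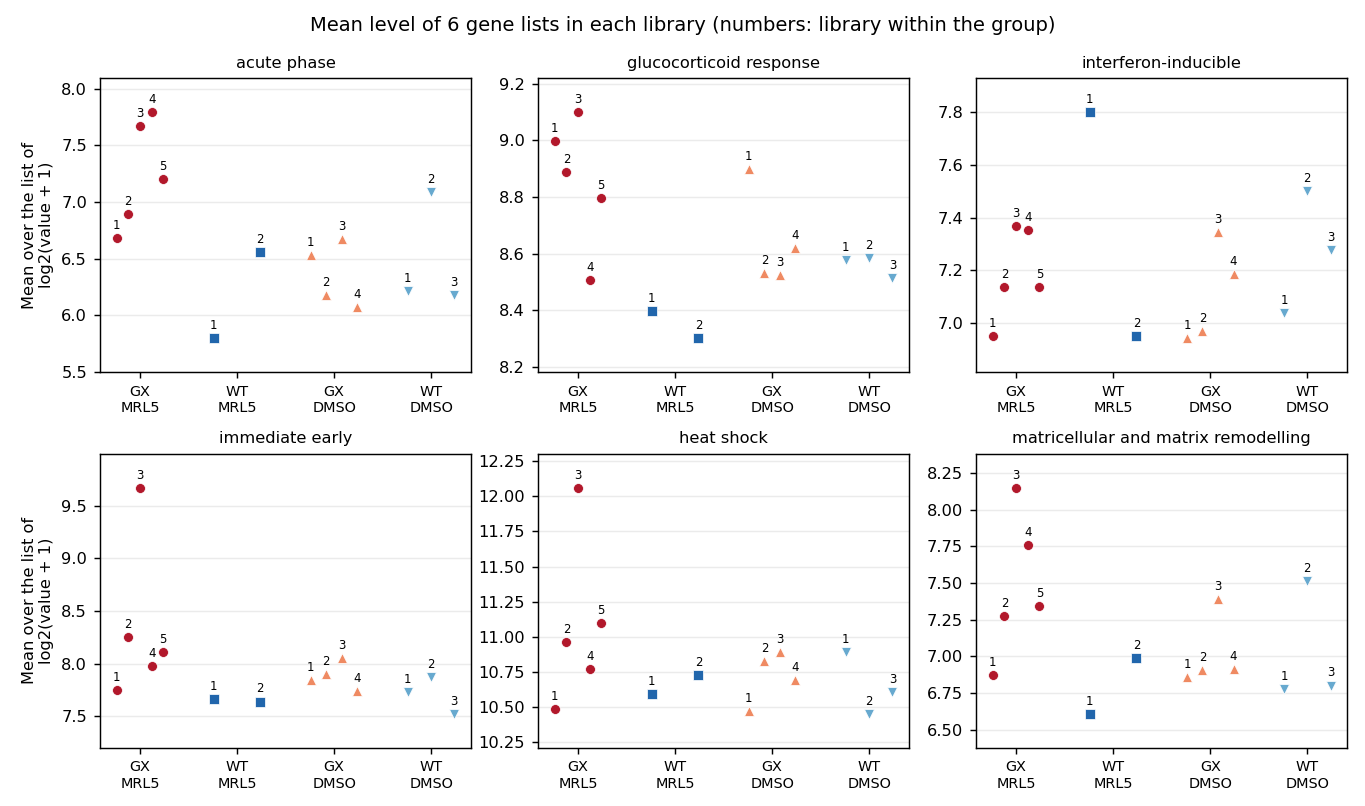
Mean of log2(value + 1) over the genes of 6 lists in each library; points are mice, numbered within their group, and the vertical axes differ and do not start at 0. GX MRL5 3 lies highest for immediate early and heat shock genes, WT MRL5 1 is lowest for acute phase genes and highest for interferon-inducible genes, and both WT MRL5 libraries are lowest of all 14 for glucocorticoid response genes.

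Matricellular and matrix remodelling genes had 32 positive members of 36, 8 at an unadjusted p under 0.05 and none of those lower, with a median of 0.48. The median was 0.17 without WT MRL5 1, with 30 members still positive, and 0.29 without GX MRL5 3, with 32 positive. In place of 8, 3 and 6 members were higher at an unadjusted p under 0.05 in these settings. Has1, a hyaluronan synthase, had 10.9, 32.7, 143, 18.5 and 17.1 in GX and 1.31 and 3.44 in WT, with no overlap and a log2 difference of 3.18 (SE 0.87, limma unadjusted p = 0.00245). Lox, which crosslinks collagen, had 119.8, 147, 239.8, 239 and 206 in GX and 69.4 and 135 in WT, a log2 difference of 0.92 (SE 0.29, limma unadjusted p = 0.00688); GX MRL5 1 lay below WT MRL5 2, and without WT MRL5 1 the difference was 0.45. Ccn2, connective tissue growth factor, had 1416, 2825, 7193, 2482 and 2513 in GX and 1060.5 and 1174 in WT, with no overlap and a log2 difference of 1.34 (SE 0.48, limma unadjusted p = 0.0166). Thbs1, thrombospondin 1, had 64.6, 651, 3372, 591 and 422 in GX and 71.8 and 93.4 in WT, a log2 difference of 2.63 (SE 1.15, limma unadjusted p = 0.0412), and here GX MRL5 1 was below both WT libraries. Has2, a second hyaluronan synthase, had a difference of 1.93 that was 0.46 without WT MRL5 1.

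Structural collagens differed less: 24 of 35 had a positive difference, with a median of 0.10, and without WT MRL5 1 the count was 11 and the median -0.05. The members with an unadjusted p under 0.05 were the basement membrane chains Col4a2 (765, 866, 910.0, 831 and 839 in GX and 612 and 701 in WT) and Col4a1, which is transcribed from the same promoter region in the opposite direction (526, 669, 764, 660.2 and 664 in GX and 439 and 579 in WT). Their differences were 0.36 and 0.37, and 0.26 and 0.17 with WT MRL5 1 left out. Among BMP and TGF-beta pathway genes 27 of 37 were positive with a median of 0.20, which was 0.09 with WT MRL5 1 left out. Skil, a feedback inhibitor of SMAD signalling, had 280.3, 281, 389, 284 and 299 in GX and 189.7 and 236 in WT, a log2 difference of 0.52 (SE 0.16, limma unadjusted p = 0.00671), with no overlap. Nog, an extracellular inhibitor of BMPs, had 10.1, 6.14, 9.13, 12.2 and 12.4 in GX and 0 and 9.08 in WT, where WT MRL5 1 is listed at 0, a log2 difference of 1.76 (SE 0.71, limma unadjusted p = 0.0263), and 0.09 without WT MRL5 1. Smad9, a BMP-responsive SMAD, went the other way with 31.5, 31.7, 27.1, 22.2 and 41.2 in GX and 41.5 and 57.0 in WT, a log2 difference of -0.67 (SE 0.28, limma unadjusted p = 0.0286); it was -0.90 with WT MRL5 1 left out and -0.45 with WT MRL5 2 left out.

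Fetal and hypertrophy genes had 19 positive members of 25 and a median of 0.36, which was 0.46 with WT MRL5 1 left out and 0.06 with WT MRL5 2 left out. Rcan1, an inhibitor and target of calcineurin, was the 1 member with an unadjusted p under 0.05, with 1409, 2462, 12854, 3911 and 3220.2 in GX and 1387 and 1272 in WT and a log2 difference of 1.42 (SE 0.57, limma unadjusted p = 0.0283); without GX MRL5 3 it was 0.95. The groups did not overlap, but GX MRL5 1 exceeded the WT values by little. Fhl1, a LIM protein of the sarcomere, had 1203, 1157, 1698, 1702 and 1330.5 in GX and 977 and 1218 in WT, a log2 difference of 0.36 (SE 0.17, limma unadjusted p = 0.0505) that was 0.20 with WT MRL5 1 left out.

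The lists of excitation and contraction genes had small median differences. Of 40 calcium cycling genes 18 were positive and the median was -0.03. Jph2, junctophilin 2, which holds the T-tubule against the sarcoplasmic reticulum, had 13872, 12018, 11712, 11890 and 12723 in GX and 17527 and 14329 in WT, a log2 difference of -0.35 (SE 0.11, limma unadjusted p = 0.00642). Camk2d, the main cardiac calcium/calmodulin kinase, had 1734, 2126, 2073, 1756 and 2119 in GX and 1514 and 1609 in WT, a log2 difference of 0.32 (SE 0.10, limma unadjusted p = 0.00669). Each GX value lay below both WT values for Jph2 and above both for Camk2d. With WT MRL5 1 left out the differences were -0.21 for Jph2 (limma unadjusted p = 0.151) and 0.28 for Camk2d, and with WT MRL5 2 left out -0.50 and 0.37. Potassium channel genes had 11 positive of 31, a median of -0.11 and none at an unadjusted p under 0.05; the smallest p belonged to Kcne4, an accessory subunit, with 49.1, 70.9, 72.0, 80.0 and 63.8 in GX and 53.9 and 41.8 in WT. The 16 sodium channel subunits and partners in the table also had none at an unadjusted p under 0.05, with a median of 0.06 and a range of -0.41 to 0.63. Scn2b, an accessory beta subunit, had 21.3, 16.1, 14.1, 21.8 and 16.9 in GX and 8.52 and 14.6 in WT, a log2 difference of 0.63 (SE 0.36, limma unadjusted p = 0.098) that was 0.27 with WT MRL5 1 left out, and Fgf13, a cytosolic modulator of sodium channels, had 519, 434, 402, 355 and 384 in GX and 525 and 500.3 in WT, a log2 difference of -0.30 (SE 0.16, limma unadjusted p = 0.0722). Rrad, an RGK GTPase that restrains calcium channels, had 2095, 2825, 3748, 4879 and 2292 in GX and 3447 and 3721 in WT, a log2 difference of -0.25 (SE 0.24, limma unadjusted p = 0.323); both WT MRL5 values lay above the DMSO libraries of both genotypes, which were 1927, 1870.5, 1827 and 2052 in GX and 2341, 1887 and 1838 in WT.

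Conduction and pacemaker genes leaned the other way, with 8 positive of 26 and a median of -0.17, but the genotypes also differed in that direction under DMSO (median -0.27). Leaving out WT MRL5 1 gave 6 positive members and a median of -0.38, and leaving out WT MRL5 2 gave 13 and -0.04. Hcn4, the pacemaker channel, had 174, 153, 175, 252 and 221 in GX and 232 and 382 in WT, a log2 difference of -0.63 (SE 0.27, limma unadjusted p = 0.0347), and under DMSO 186, 175, 314 and 213 in GX and 248, 441 and 357 in WT; the difference under MRL5 was -0.99 with WT MRL5 1 left out and -0.27 with WT MRL5 2 left out. Within the GX mice of either treatment and the WT mice under DMSO, the library with the highest Hcn4 was the one with the most of the atrial gene Myl7, 133 in GX MRL5 4, 643 in GX DMSO 3 and 3967 in WT DMSO 2. In the WT mice under MRL5 the atrial genes were mixed. Hcn4 was higher in WT MRL5 2, while Myl7, at low values, was higher in WT MRL5 1. The atrial gene Nppa went with Myl7 (2452.7 in WT MRL5 1 and 1431.2 in WT MRL5 2). The atrial light chain Myl4 went with Hcn4 (29.968 and 102.61), as did the mean log2 level of the atrial marker list (7.0883 and 7.3833). The part of atrial tissue in the conduction and pacemaker list was not tested. Irx4, a ventricular homeobox factor, had 423, 437, 346, 512 and 459.8 in GX and 555 and 563 in WT, a log2 difference of -0.37 (SE 0.13, limma unadjusted p = 0.013), and Tbx3, a repressor that marks the conduction system, had 252, 300.3, 293, 251 and 242 in GX and 199.9 and 208 in WT, a log2 difference of 0.39 (SE 0.15, limma unadjusted p = 0.0205). The groups overlapped for Hcn4 and did not for Irx4 and Tbx3. Sarcomere genes had a median of -0.03 and intercalated disc genes of 0.07.

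Lists of energy metabolism genes had medians near 0. Of 48 nuclear-encoded subunits of oxidative phosphorylation 8 were positive, with a median of -0.07 and a range of -0.27 to 0.13, and none had an unadjusted p under 0.05. Under DMSO 42 of the same genes were positive, with a median of 0.18, against 46.6% of all genes. Without WT MRL5 1 the count under MRL5 was 22 and the median -0.01. Leaving out GX MRL5 4 gave 16 positive and a median of -0.02, and leaving out GX MRL5 3 and GX MRL5 4 together gave 25 positive. Sdha, the catalytic subunit of succinate dehydrogenase, had 4095, 3822, 3974, 3434 and 4068 in GX and 4644 and 4110.4 in WT, and Cox7a1, a muscle subunit of cytochrome oxidase, had 19976, 17526, 17031, 15999 and 19118 in GX and 22517 and 19101 in WT. Cytosolic ribosomal proteins had 23 positive of 50 and a median of -0.01 under MRL5, against 45 positive and 0.19 under DMSO. GX DMSO 4 had the highest mean log2 level of both lists, 12.119 for ribosomal proteins and 13.528 for oxidative phosphorylation. Ribosomal levels were 11.653, 11.468 and 11.556 in the other GX DMSO libraries and 11.487, 11.547 and 11.486 in WT DMSO. Oxidative phosphorylation levels were 13.14, 13.121 and 12.977 in those GX libraries and 13.105, 12.842 and 13.024 in WT DMSO. The DMSO medians without GX DMSO 4 are not given here.

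Fatty acid oxidation genes had 23 positive of 37 and a median of 0.06, led by Angptl4 and Pdk4. In the glycolysis list 7 of 30 were positive with a median of -0.05, and Hk2, the insulin-responsive hexokinase, had 1954, 1776, 1805, 1777 and 2026 in GX and 2231 and 2282 in WT, a log2 difference of -0.27 (SE 0.12, limma unadjusted p = 0.0374). Each GX value of Hk2 lay below both WT values. Hypoxia response genes had a median of 0.13 and 18 positive of 26. Pfkfb4, a regulator of glycolytic flux, had 28.8, 39.9, 26.7, 49.2 and 28.6 in GX and 16.3 and 21.2 in WT, a log2 difference of 0.82 (SE 0.28, limma unadjusted p = 0.0112).

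Heme and iron genes had a median near 0 (11 positive of 23), yet 5 members were higher at an unadjusted p under 0.05, and 2 when WT MRL5 1 was left out. Hmox1, heme oxygenase 1, which breaks down heme (chromosome 8, 75093621 to 75100589, plus strand), had 308, 211, 578, 388 and 299 in GX and 130.7 and 158 in WT, with no overlap and a log2 difference of 1.23 (SE 0.32, limma unadjusted p = 0.00203, adjusted p = 0.65). Flvcr2, a heme and choline transporter, had 114, 146, 98.8, 95.6 and 122 in GX and 43.2 and 66.3 in WT, a log2 difference of 1.08 (SE 0.33, limma unadjusted p = 0.00533), and its relative Flvcr1 had 54.1, 68.1, 51.6, 54.3 and 61.3 in GX and 27.3 and 37.5 in WT, a log2 difference of 0.83 (SE 0.28, limma unadjusted p = 0.01). Neither overlapped, and without WT MRL5 1 the differences of the 3 genes were 1.09, 0.77 and 0.60. Among NRF2 and antioxidant genes Gsta1, a glutathione transferase with close relatives, had 71.0, 46.2, 72.6, 33.4 and 40.4 in GX and 31.7 and 18.8 in WT, a log2 difference of 1.01 (SE 0.39, limma unadjusted p = 0.0201) (and 0.65 with WT MRL5 2 left out), while the list's median was 0.05. In the polyamine list Azin1, which frees ornithine decarboxylase from its inhibitor, had 199, 269, 441, 284 and 268 in GX and 171 and 225 in WT, a log2 difference of 0.53 (SE 0.22, limma unadjusted p = 0.033) that was 0.33 with WT MRL5 1 left out, and Amd1, which makes decarboxylated S-adenosylmethionine and has a near copy in Amd2, had 3554, 3831, 4948, 4054 and 4206 in GX and 3028 and 3377 in WT, a log2 difference of 0.36 (SE 0.16, limma unadjusted p = 0.0387). The circadian list had a median of 0.06; Bhlhe40, a clock repressor also induced by stress, had 398, 746, 794, 574 and 478 in GX and 397 and 374 in WT, a log2 difference of 0.58 (SE 0.23, limma unadjusted p = 0.0212).

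Interferon-inducible genes depended on 1 library. Over 50 members 13 had a positive difference and the median was -0.15. Mean levels over the list were 6.95, 7.14, 7.37, 7.35 and 7.14 in the GX libraries and 7.80 and 6.95 in the WT libraries. WT MRL5 1 was the highest of all 14 libraries and WT MRL5 2 equal to the lowest GX library. Without WT MRL5 1, 41 members were positive with a median of 0.20, and without WT MRL5 2, 10 with a median of -0.50. Gbp3, a guanylate-binding GTPase, had 72.3, 65.9, 71.7, 76.6 and 77.4 in GX and 303 and 71.7 in WT, and its difference of -1.01 was 0.02 without WT MRL5 1. Rtp4, an interferon-induced chaperone, had 115, 103, 143, 104 and 109.6 in GX and 202 and 134 in WT. Ifi205, described above, did not follow this pattern: it was low in both WT libraries.

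**Figure D4:**
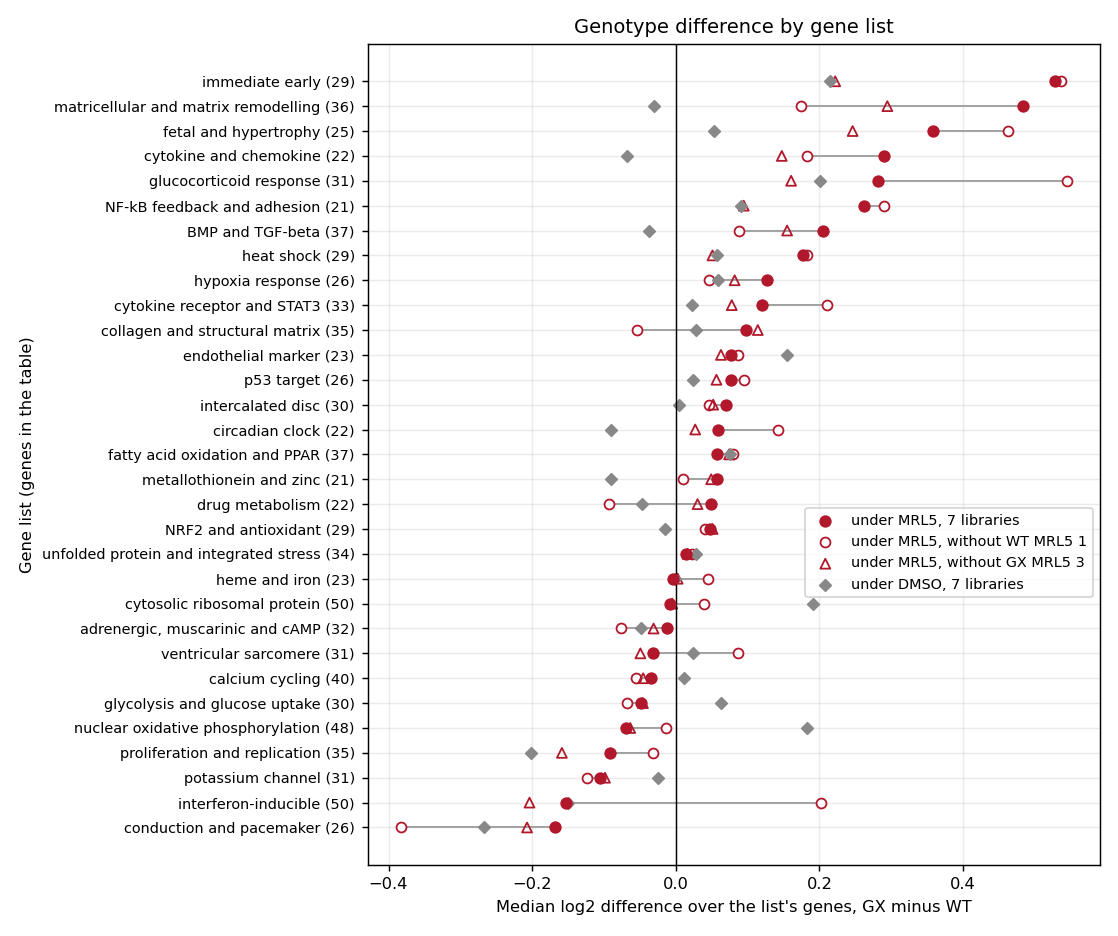
Median log2 difference, GX minus WT, over the genes of each list with at least 20 genes in the table: filled circles use the 7 MRL5 libraries, open circles leave out WT MRL5 1, open triangles leave out GX MRL5 3, and grey diamonds are the genotype difference under DMSO. Immediate early and matricellular genes lie farthest right under MRL5, and the interferon-inducible list changes side without WT MRL5 1.

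Markers of other cell types were set beside these lists. Endothelial, fibroblast and mural marker lists had medians of 0.08, 0.11 and 0.06, with 16 of 23, 10 of 17 and 10 of 14 genes positive. Leaving out WT MRL5 1 gave medians of 0.09, -0.08 and 0.03. Adipocyte markers had 6 positive of 7 and a median of 0.29, and Schwann and neuronal markers 6 of 9 and 0.47. With WT MRL5 1 left out these medians were -0.11 and -0.08. Esam, an endothelial adhesion molecule, had 340.2, 339, 387, 303 and 326 in GX and 257 and 246 in WT, with no overlap and a log2 difference of 0.43 (SE 0.12, limma unadjusted p = 0.00385). Macrophage markers had a median of -0.09 with 5 positive of 18, and their mean level ranged from 7.41 to 8.20 in GX and 7.68 to 7.72 in WT. Ccr2, the receptor for Ccl2 on recruited monocytes, had 45.9, 45.4, 54.8, 106 and 46.6 in GX and 20.7 and 40.0 in WT, a log2 difference of 0.94 (SE 0.38, limma unadjusted p = 0.0253), which was 0.48 without WT MRL5 1. Of 17 neutrophil markers 6 were in the table, at low values (mean log2 level 2.94 to 3.75 in GX and 2.38 to 3.19 in WT), with a median difference of 0.55; Clec4d had 12.1, 12.6, 23.1, 13.1 and 14.4 in GX and 9.81 and 7.21 in WT. Erythroid markers had 9 positive of 10 and a median of 0.24, and lymphocyte markers, 6 of 16 in the table, a median of -0.40; with WT MRL5 1 left out these were 0.12 and 0.02. Mean mesothelial levels lay between 2.79 and 6.47 in GX and were 4.61 and 5.17 in WT, with a median difference of -0.13 that was -0.54 with WT MRL5 1 left out. The part of any of these cells in the differences above was not tested.

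The genotype difference under MRL5 was then set beside that under DMSO, which shares no library with it. Of the 3 WT DMSO libraries WT DMSO 2 and WT DMSO 3 came from set 174, and all 4 GX DMSO libraries from set 148, so genotype under DMSO and library set largely cannot be told apart. Under DMSO no gene passed either (0% called, smallest adjusted p 0.866, 802 genes or 5.67% at an unadjusted p under 0.05, limma). Over all genes the differences had the same sign under both treatments for 46.8%, and for 440 of the 932 genes (47.2%) with an unadjusted p under 0.05 under MRL5. The correlation across genes was 0.0097, as a description over 14156 genes that are not independent. An unadjusted p under 0.05 under both treatments was found for 31 genes with the same sign and 31 with opposite signs (0.219% of all genes each). The test of the difference between the genotype contrasts called no gene (0% called, smallest adjusted p 0.185, 904 genes or 6.39% at an unadjusted p under 0.05).

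**Figure D5:**
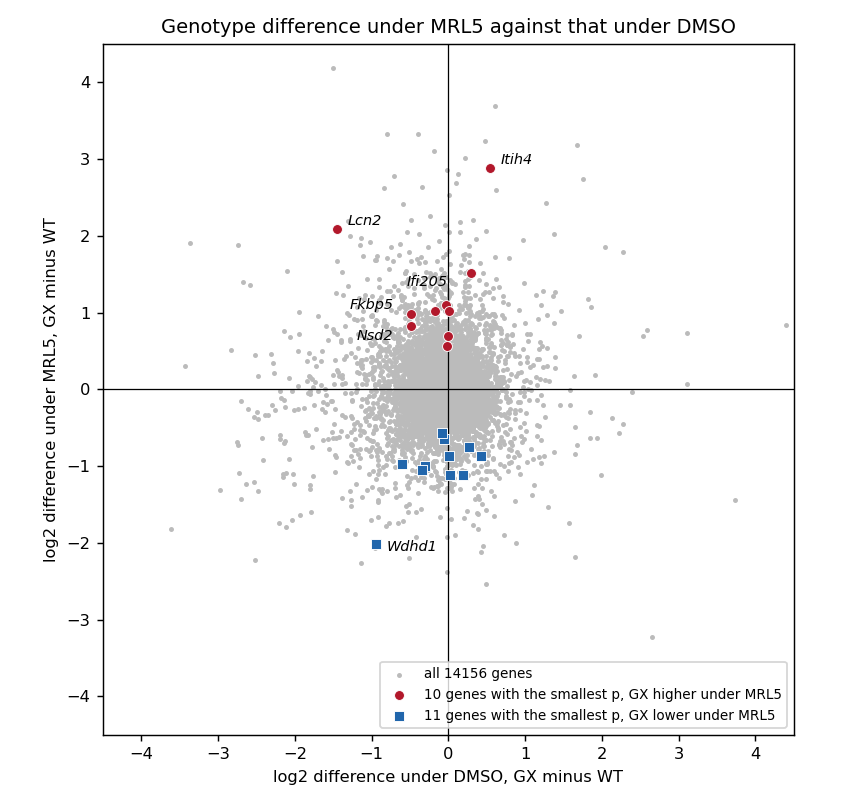
Genotype difference (log2, GX minus WT) of each of 14156 genes under MRL5 on the vertical axis and under DMSO on the horizontal axis; red circles and blue squares are the genes shown above with the smallest p, and 2 genes lie outside the axes. The cloud shows no slope (r = 0.0097), and of the red circles Lcn2, Nsd2 and Fkbp5 lie farthest to the left, where GX was lower under DMSO.

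Genes with the same sign under both treatments included Cobl, an actin nucleator, with 915, 950.1, 1131, 869.9 and 862 in GX and 502 and 712 in WT under MRL5 and 1103, 869, 773 and 1022 in GX and 686, 749 and 533 in WT under DMSO. The differences were 0.65 under MRL5 and 0.52 under DMSO, with limma unadjusted p-values of 0.00183 and 0.00476. Gatb, a subunit of the mitochondrial glutamyl-tRNA amidotransferase, had 0.28 and 0.20, and Zmynd19 had 0.30 and 0.30. With WT MRL5 1 left out the differences of the 3 genes under MRL5 were 0.40, 0.37 and 0.47, and with WT MRL5 2 left out 0.90, 0.18 and 0.13. Nr2c2, an orphan nuclear receptor, was lower in GX under both, with -0.37 and -0.34, and the same held for Wdhd1 (-2.01 and -0.94) and Pcdhga6 (-0.97 and -0.60).

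The smallest p for the difference between the contrasts belonged to Nsd2. Under DMSO it had 260.4, 323, 276 and 387 in GX and 427, 388 and 490.5 in WT, a difference of -0.49, opposite to the 0.83 under MRL5; the contrasts differed by 1.32 (SE 0.21, limma adjusted p = 0.185). Lcn2 had 70.5, 59.4, 37.4 and 49.9 in GX and 103, 169.7 and 181 in WT under DMSO, where each GX value lay below each WT value, and the contrasts differed by 3.54 (SE 0.58, limma adjusted p = 0.185). Fkbp5 had 463, 237, 244 and 294 in GX and 436, 439 and 375 in WT under DMSO; all but GX DMSO 1 lay below the WT values, and the contrasts differed by 1.46 (SE 0.28, limma adjusted p = 0.373). For these 3 genes the WT libraries under MRL5 were therefore lower than the WT libraries under DMSO, while the GX libraries under MRL5 overlapped or exceeded them. Within library set 148, where WT DMSO 1 is the lone WT DMSO library, the differences under DMSO were -0.47 for Nsd2, -0.94 for Lcn2 and -0.55 for Fkbp5, and the contrasts differed by 1.37, 2.79 and 1.59.

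Ifi205, Ppp1r9a (neurabin, a regulator of protein phosphatase 1 at actin) and Fbxl22 (an F-box protein of the cardiac sarcomere) followed, with contrasts that differed by 1.19, 0.98 and -0.75. Ifi205 had 964, 782, 726 and 988 in GX and 947, 1086 and 877 in WT under DMSO, so that 12 libraries lay above both WT MRL5 libraries. Ppp1r9a had 105, 133, 110.2, 121 and 107 in GX and 85.03 and 83.9 in WT under MRL5, and 111, 117, 94.3 and 79.2 in GX and 129.4, 153 and 154 in WT under DMSO. Fbxl22 was the reverse, with 1408, 1539, 1349, 1134 and 1312 in GX and 1680.1 and 1450.4 in WT under MRL5, and 1614, 1634, 1618 and 1693 in GX and 1338, 1097 and 1002 in WT under DMSO. Hmox1 and Mt2 also differed between the contrasts at an unadjusted p of 0.000895 and 0.00336 (limma), by 1.84 and 2.39.

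When WT MRL5 2 was left out, so that WT MRL5 1 alone stood for the WT group, 63 genes passed the adjusted threshold (limma). The genes with the smallest p among them were Itih4, Tox2, Dmtf1, the vomeronasal receptor gene Vmn1r55, Ccdc14 and Pde1a. Tox2, a transcription factor of the HMG-box class, had 34.02, 14.3, 38.8, 40.1 and 27.3 in GX and 0 and 16.3 in WT, where WT MRL5 1 is listed at 0, and Pde1a, a calmodulin-dependent phosphodiesterase, had 130.2, 128, 127, 116 and 112 in GX and 37.9 and 111 in WT. Dmtf1, a cyclin D-binding transcription factor, had 129.8, 159, 220.2, 184 and 165 in GX and 661 and 174 in WT, and Ccdc14 had 47.5, 48.3, 32.0, 36.1 and 38.4 in GX and 7.74 and 58.4 in WT. In each of the 4 genes WT MRL5 2 lay within or close to the GX range and WT MRL5 1 far outside it. With WT MRL5 2 as the lone WT library limma called no gene, with 283 positive and 262 negative genes at an unadjusted p under 0.05 (2.0% and 1.85%).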

How the data were processed

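The deposited table gives 1 signal value per gene and library, in scaled reads per base as named in its column headers; per the submitters' processing notes the authors used kallisto and sleuth 0.3.0 with GRCm38. No source used here states the scaling. The values are not counts and depth is unknown, so intervals from counts could not be had. The test named in advance was limma, with a count test in its place only for raw counts. The authors' own p-values and summary columns were not used. Of 14307 entries 146 were repeats and dropped, and 22 missing or date-like symbols were replaced through their Ensembl identifiers; 14106 genes were placed with GENCODE M21 (GRCm38). No sample column was left unmapped (0 columns).

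The test was limma 3.58.1 in R 4.3.3 (trend and robust variance) on log2(value + 1), with a mean for each of the 4 groups, 14 libraries and 10 residual degrees of freedom, and Benjamini-Hochberg adjustment over 14156 genes that reach 1 in 2 or more of the 14 libraries. Tested on simulated data for the comparison under MRL5 (14156 genes), it recovered 66 of 100 genes changed by 1 log2 unit and 85 of 100 changed by 2, with 8 false calls. The changed genes were drawn only from those above a minimum mean level. Each gene had normal noise of equal spread in all 14 libraries. No simulated library stood apart as WT MRL5 1 does, so recovery with such a library was not tested. Each p rests on the spread between mice of the same genotype and treatment, pooled over the 4 groups and moderated across genes. Replicate numbers pair nothing.

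Genes were named by a rule: the 12 with the smallest p in each direction whose groups do not overlap, the 4 with the smallest p in each list and its other members at an unadjusted p under 0.05, and the 6 with the smallest p in both contrasts, in their difference and without 1 library, leaving out predicted genes. Of the genes this gives, those used in the text were chosen after their values were seen, and 95 were followed through the alternatives. The comparison and all 48 lists were chosen with earlier results of these data known. A few genes are not reported here. Promoter windows of 250 bases come from RefSeq (GRCm38.p6). Alternatives covered the pseudocount, filter, scaling, variance model, library set and index as covariates, the libraries fitted, and each library left out.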

Additional observations from a re-analysis of the deposited data

Results flagged for a closer look

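Of 146 values or list means examined over the 5 GX MRL5 libraries, 26 had 1 library far from the other 4 by Dixon's test. Chance gives about 1 in 20 for independent, normally distributed values. Here gene values were examined without logs, the genes were named by their values, and all share the same libraries. The 26 therefore cannot be read as an excess over that rate.

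GX MRL5 3 was that library for most of them. It was the highest for Ifi205 (1368), the chemokines Ccl12 (104), Ccl2 (1494) and Ccl7 (613), the receptor gene Il4ra (461) and Ptx3 (568). It was also the highest for the transcription factors Egr3 (241) and Atf3 (6805), for Ccn2 (7193) and Thbs1 (3372), for the chaperones Hspb8 (11724) and Hspa1a (53385), and for Has1 (143), Skil (389), Rcan1 (12854), Rtp4 (143) and Clec4d (23.1). It was the lowest for Ky (72.2). The mean level of its immediate early list, 9.67 on the log2 scale, was likewise above the other 4 libraries.

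GX MRL5 4 was the highest for Ube2e1 (191) and Ccr2 (106), and its list means stood above those of the other 4 for conduction and pacemaker genes (7.16) and atrial markers (7.95), and below them for adrenergic, muscarinic and cAMP genes (8.76). GX MRL5 5 was the highest for Zc3h6 (126) and GX MRL5 2 the lowest for Ccl9 (241).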

How the results depend on the processing

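Of the genes named above, 95 were followed through 27 alternative settings, and Vmn1r55 was not among them. None of the 95 passed limma's adjusted threshold, except some when WT MRL5 2 was left out. The count called under MRL5 was 1 when the 7 MRL5 libraries were fitted alone and 0 to 63 when 1 library was left out. Positive genes at an unadjusted p under 0.05 numbered 316 with the columns scaled to equal sums and 283 to 1016 with 1 library left out, and negative ones 262 to 1096. Under DMSO the calls were 0 to 1 with 1 library left out and 1 without GX MRL5 3 and GX MRL5 4, a setting chosen after seeing the data. The difference between the contrasts called 1 gene with equal sums and 0 to 27 with 1 library left out. Its positive genes at an unadjusted p under 0.05 numbered 240 within library set 148 and 223 to 1118 with 1 library left out. Its negative genes numbered 177 with equal sums, 276 within set 148, 289 without GX MRL5 3 and GX MRL5 4, and 143 to 1183 with 1 library left out.

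Genes whose groups do not overlap numbered 2564 without GX MRL5 3 and GX MRL5 4 and 1597 to 6833 with 1 library left out, since fewer samples overlap less often. The share of genes with the same sign under both treatments was 34.1% to 64.2% with 1 library left out. With 1 library left out the difference of Gbp3 ranged from -2.05 to 0.019 and that of Ccdc14 from -0.54 to 2.23; both changed sign without WT MRL5 1. Of 1296 list medians under the alternatives, 44 had the other sign and 23 moved by more than the spread between GX libraries. No paired analysis was possible because the numbers given to the mice are names only. The 2 WT libraries under MRL5 limit every value.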
